A study of Mus musculus with 10 samples.

Results

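Transcripts of 10 genes of the T cell receptor (TCR) response were followed in regulatory T (Treg) cells that keep or lose the protein Foxp3. They are Egr1, Egr2 and Egr3, which encode zinc finger transcription factors of the EGR family, Nr4a1, Nr4a2 and Nr4a3, which encode orphan nuclear receptors, Nab1 and Nab2, which encode corepressors that bind EGR proteins, and Cd69 and Cd5, which encode surface proteins used as readouts of TCR signal. These genes were chosen by name from the 55809 gene rows of the count files. All 10 passed the filter of a mean count of at least 10 and were among the 16363 genes tested. The gene with the fewest reads was Nr4a2, with 74 to 266 read pairs in a library, whereas Cd5 had 17958 to 45398.

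EGR and NR4A genes are immediate early genes. They are transcribed within a short time of TCR engagement through calcium, calcineurin and MAP kinase signals, without the need for newly made protein, and their transcripts decay fast. In Treg cells, which recognize self antigen, a steady level of these transcripts is taken as a sign of ongoing TCR input, and NR4A factors are known to take part in Treg development and upkeep. EGR proteins also switch on genes that restrain the signal, among them the NAB corepressors, which in turn act on EGR proteins.

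Bulk RNA-seq was performed on Treg cells from spleen and lymph nodes, taken from mice whose own Foxp3 gene makes Foxp3 as a fusion with an auxin-inducible degron (AID). Both genotypes, Foxp3-AID ROSA26-TIR1(F74G) (R26-TIR1(F74G), 6 libraries) and Foxp3-AID ROSA26-WT (R26-WT, 4 libraries), were given the auxin analog 5-ph-IAA over 14 days, and the comparison asks what the loss of Foxp3 protein does to the transcripts of Treg cells. TIR1(F74G) is a plant ubiquitin ligase adaptor that, when bound by 5-ph-IAA, marks the fusion protein for degradation. Per the study's methods, it is made from the ROSA26 locus once Cre, driven by the Foxp3 gene itself, has removed a stop cassette. R26-WT cells thus have the degron and the compound but no TIR1(F74G). Xist had at most 7 read pairs in any library and the Y chromosome gene Ddx3y at least 3926, as in male cells. The paper describes a mild rise in inflammation in hemizygous males that lose Foxp3. An effect inside Treg cells and one of changed surroundings therefore cannot be told apart here. The labels give no age, and the methods do not state the sort gate for these libraries by name. The general gate they describe takes ZsGreen+ cells (a reporter made with Foxp3), and from R26-TIR1(F74G) mice those that are also mCherry+ (a reporter made with TIR1), so where it was used gate and genotype cannot be told apart. Library titles in the labels carry a replicate number from 1 to 10, a different one for each library.

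The degron acts on protein, and Foxp3 transcripts therefore do not check the labels. They stood at 8930 ± 2366 normalized counts (read pairs scaled for library depth, SD, n = 4) when TIR1(F74G) was absent and at 9402 ± 3415 (n = 6) when it was present. Summed normalized counts of 5 T cell markers were 173679 to 240965 and of 6 Treg markers 66398 to 89265, whereas those of 8 B cell markers were 730.5 to 1392, of 6 CD8 and NK markers 1403 to 2560 and of 8 myeloid markers 74.4 to 151.8, with Fcrla, Ncr1, Cd14 and Itgax at 0 in all 10 libraries. Cd8b1 (756 to 2226 read pairs in a library), Nkg7 (230 to 881), Cd79b (370 to 1341) and Cd79a (130 to 333) were present in all of them. Libraries held 24158699 to 54795718 read pairs, more in R26-WT than in R26-TIR1(F74G) (exact two-sided permutation test over 210 splits, p = 0.0476). Libraries also differed in how their counts depended on gene length. This length trend ran from -0.15 to 0.18 log2 units per doubling of exon length, with libraries of both signs in each genotype, and the first principal component, with 60.5% of the variance, followed it.

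Of the 10 genes, 7 had an entry in a table of RefSeq promoter windows (250 bases before to 50 after a start, table build GRCm38.p6), and Egr1, Egr3 and Cd69 did not. The windows of Egr2, Nr4a1, Nr4a3 and Nab1 are shown because the levels of these 4 genes deviated together between libraries, as described further on, and because they differ in the binding motifs they hold. Each was matched exactly to GRCm39, at chr10:67373449-67373748 for Egr2, chr15:101164477-101164776 for Nr4a1, chr4:48045055-48045354 for Nr4a3 (all on the plus strand) and chr1:52539558-52539857 for Nab1 (minus strand). Capitals mark matches, on either strand, to TGACG (the half-site of cAMP response elements, bound by CREB and ATF factors), to GCGGGGGCG or GCGTGGGCG (EGR sites), to AAAGGTCA (the site that NR4A monomers bind) and to the CArG box (bound by SRF).
Egr2: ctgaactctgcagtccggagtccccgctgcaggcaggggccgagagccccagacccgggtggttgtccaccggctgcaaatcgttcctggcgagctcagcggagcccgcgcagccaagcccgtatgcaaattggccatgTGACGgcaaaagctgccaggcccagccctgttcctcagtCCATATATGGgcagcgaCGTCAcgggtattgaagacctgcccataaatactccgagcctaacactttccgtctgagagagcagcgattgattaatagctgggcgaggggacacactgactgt
Nr4a1: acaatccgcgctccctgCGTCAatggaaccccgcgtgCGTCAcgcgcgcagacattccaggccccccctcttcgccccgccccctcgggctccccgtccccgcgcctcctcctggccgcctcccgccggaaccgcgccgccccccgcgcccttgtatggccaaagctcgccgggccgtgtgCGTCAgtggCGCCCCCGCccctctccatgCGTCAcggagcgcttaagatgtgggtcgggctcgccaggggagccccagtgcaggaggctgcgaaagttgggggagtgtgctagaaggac
Nr4a3: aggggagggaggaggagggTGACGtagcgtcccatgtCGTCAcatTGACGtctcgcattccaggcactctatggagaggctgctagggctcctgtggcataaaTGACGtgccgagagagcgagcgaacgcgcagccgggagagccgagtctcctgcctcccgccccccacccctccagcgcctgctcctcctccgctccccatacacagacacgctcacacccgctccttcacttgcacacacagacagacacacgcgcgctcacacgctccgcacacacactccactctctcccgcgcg
Nab1: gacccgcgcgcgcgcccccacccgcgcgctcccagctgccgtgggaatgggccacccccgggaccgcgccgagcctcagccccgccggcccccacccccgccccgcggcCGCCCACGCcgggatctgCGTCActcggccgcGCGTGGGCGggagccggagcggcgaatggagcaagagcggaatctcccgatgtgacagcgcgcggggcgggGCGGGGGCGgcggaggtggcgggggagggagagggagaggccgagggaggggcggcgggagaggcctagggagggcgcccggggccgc

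The windows of Nr4a1 and Nr4a3 each held 4 copies of TGACG, which 0.234% of the 32544 windows in the table did. At least 1 copy was found in 20.9% of them and at least 2 in 5.04%. Windows behind these and the following shares were not matched for base composition. Nr4a2 also had 4 copies, in a window whose start lies 7769 bases from the start of its canonical GENCODE transcript. In Egr2 there were 2 copies, with a CArG box between them at position -72 from the start, and a CArG box was found in 1.64% of all windows. Nab1 had 1 copy of TGACG, 1 GCGGGGGCG (2.93% of windows) and 2 copies of GCGTGGGCG (2 or more in 0.0215% of windows, at least 1 in 0.618%), and Nr4a1 had 1 GCGGGGGCG. No match to AAAGGTCA, found in 1.52% of windows, lay in any of the 7, and the windows of Cd5 and Nab2 held none of the motifs, that of Nab2 having its start 1886 bases from the canonical one. Matches in the 4 printed windows did not overlap each other. These are matches of letters and not measured binding. The deviations of the 4 genes whose windows are printed also followed the length trend of the libraries. A link between motifs and deviations was not tested.

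Per length of exon, the 10 genes spanned a wide range of transcript levels. In R26-WT, Cd5 was highest at 7236 ± 229 normalized counts per kb (SD, n = 4), above 98.2% of the genes tested. Cd69 (2364 ± 363), Egr1 (2019 ± 147), Nr4a1 (1806 ± 343) and Nab1 (1489 ± 302) followed, with overlap between neighbours among these 4 genes. Nab2 (1016 ± 119) and Egr2 (945 ± 192) overlapped each other and lay below Nab1 in every library. Egr3 (119.8 ± 26.2), Nr4a3 (66.2 ± 14.8) and Nr4a2 (38.8 ± 19.0) were the lowest per kb, again each overlapping the next, and Nr4a2 lay above only 27.3% of genes. Thus Egr1 and Egr2 were the main EGR transcripts and Nr4a1 the main NR4A transcript. In R26-TIR1(F74G) the order was much the same. Egr1 (2109 ± 185 per kb, SD, n = 6) stood above Cd69 (1763 ± 329) there, and Egr2 (1053 ± 125) stood above Nab2 (988 ± 112), with overlap within both pairs. The place of Nab2 in either order is uncertain, since part of its exon length could not be counted.

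**Figure D1:**
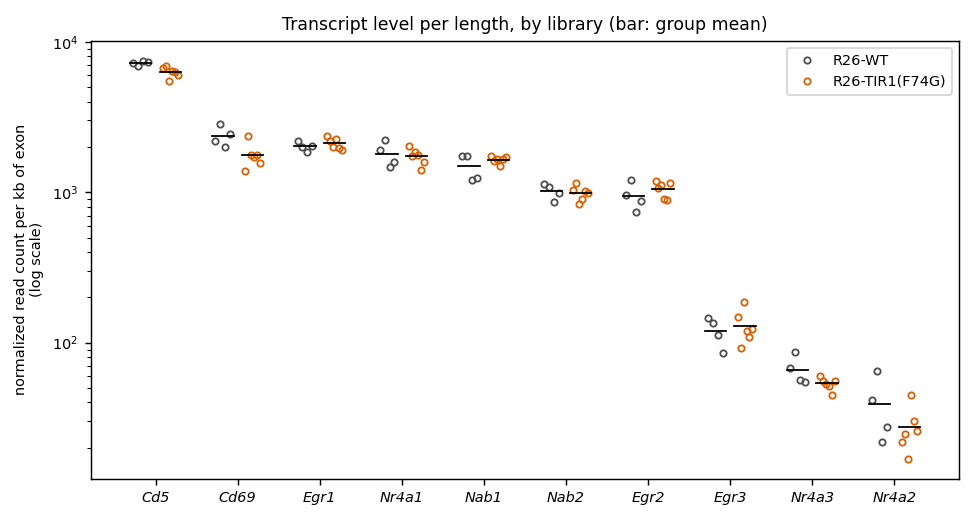
Normalized read counts per kb of exon (y axis, log scale) of the 10 genes (x axis, in the order of their R26-WT mean). Circles are libraries, grey for R26-WT (4) and orange for R26-TIR1(F74G) (6), and bars are group means, which run from 7236 for Cd5 to 38.8 for Nr4a2 in R26-WT.

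None of the 10 transcripts passed the test for a difference between the genotypes. Adjusted over all 16363 genes, 0 of 10 had a DESeq2 adjusted p under 0.05, against 1.74% of all genes tested. The edgeR quasi-likelihood test and limma voom also called 0 of 10. At an unadjusted p under 0.05 there were 2 of 10, Cd69 and Cd5, both lower in R26-TIR1(F74G), against 6.86% of all genes. The log2 fold change was above 0 for 4 genes and below it for 6, with a median of -0.05, where the median over all genes tested was 6.27e-04.

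**Figure D2:**
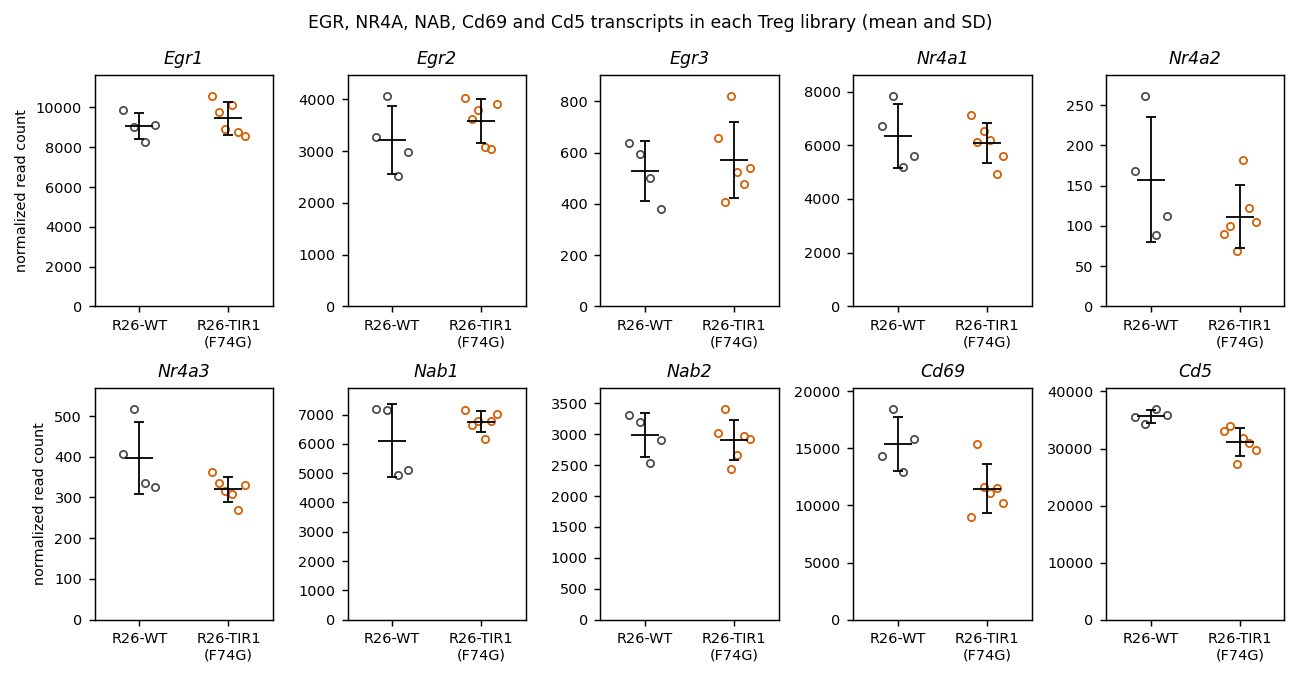
Normalized read counts (y axes, each from 0 and to its own scale) of the 10 genes in every library, with the mean (bar) and SD (whiskers) of R26-WT (grey, n = 4) and R26-TIR1(F74G) (orange, n = 6). The circles of the genotypes overlap for every gene but Cd5, whose R26-TIR1(F74G) libraries all lie below 34219, the lowest R26-WT value.

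Egr1 (chromosome 18, 34992876 to 34998037, plus strand, GRCm39) is the EGR gene most widely used as a mark of fresh signal. It stood at 9850, 9008, 8241 and 9118 normalized counts in R26-WT replicates 1 to 4, and ran from 8570 to 10598 with a median of 9336 in R26-TIR1(F74G). The ranges overlapped, with 2 of 6 R26-TIR1(F74G) libraries above all R26-WT libraries and R26-WT replicate 3 below all R26-TIR1(F74G) libraries. Egr1 was the steadiest of the 6 transcription factor transcripts in both genotypes, with a coefficient of variation of 7.27% and 8.77%. DESeq2 put the log2 fold change at 0.06 (SE 0.10, adjusted p = 1), and the 95% confidence interval of the ratio of R26-TIR1(F74G) to R26-WT was 0.909 to 1.2.

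Egr2 (chromosome 10, 67371305 to 67378018, plus strand), whose product restrains T cell activation together with that of Egr3, had 3275, 4071, 2514 and 2987 normalized counts in R26-WT and 3036 to 4031 (median 3706) in R26-TIR1(F74G). All 6 R26-TIR1(F74G) libraries fell within the span of R26-WT, with a log2 fold change of 0.16 (SE 0.16; adjusted p = 1 in DESeq2). Egr3 (chromosome 14, 70314652 to 70320063, plus strand) had 637.8, 596.2, 498.9 and 378.0 normalized counts in R26-WT, and 406.7 to 822.2 (median 532.2) in R26-TIR1(F74G). Again the groups overlapped, with 2 of 6 R26-TIR1(F74G) libraries above all R26-WT libraries, and the DESeq2 log2 fold change of 0.12 (SE 0.22, adjusted p = 1) changed sign without R26-WT replicate 4 (-0.01) or R26-TIR1(F74G) replicate 7 (-0.02). The 95% intervals of the log2 fold change ran from -0.15 to 0.46 for Egr2 and from -0.31 to 0.54 for Egr3.

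Nr4a1 (chromosome 15, 101152150 to 101172676, plus strand), which encodes Nur77, had 6730, 7848, 5179 and 5593 normalized counts in R26-WT and 4940 to 7128 (median 6156) in R26-TIR1(F74G). The groups overlapped, with 1 of 6 R26-TIR1(F74G) libraries below all R26-WT libraries. DESeq2 gave a log2 fold change of -0.06 (SE 0.15, adjusted p = 1), with a 95% interval of the ratio of 0.781 to 1.18. Limma voom gave 0.02 and the fit without R26-WT replicate 2 gave 0.06, so the small difference had no settled sign.

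The 2 scarcer NR4A transcripts had lower means in R26-TIR1(F74G) but did not pass the test. Nr4a2 (chromosome 2, 56996842 to 57014015, minus strand), which encodes Nurr1, had 168.0, 261.7, 88.7 and 111.6 normalized counts in R26-WT and 68.5 to 182.2 (median 101.9) in R26-TIR1(F74G). Nr4a3 (chromosome 4, 48045153 to 48086447, plus strand), which encodes Nor1, had 406.1, 517.5, 336.1 and 325.6 in R26-WT and 270.4 to 361.6 (median 323.7) in R26-TIR1(F74G). In R26-WT replicate 2 both stood at their highest. Log2 fold changes were -0.51 for Nr4a2 (SE 0.33, 95% interval -1.15 to 0.13, DESeq2 adjusted p = 1) and -0.31 for Nr4a3 (SE 0.16, 95% interval -0.63 to 0.02, DESeq2 adjusted p = 0.807). All 6 R26-TIR1(F74G) libraries lay below the R26-WT mean of Nr4a3, and 3 of 6 below all R26-WT libraries (exact two-sided permutation test, p = 0.0524). Without R26-WT replicate 2 the log2 fold changes were -0.16 for Nr4a2 and -0.15 for Nr4a3. When the length trend of each library was removed, the Nr4a3 groups no longer overlapped (364.5 to 468.8 in R26-WT, 272.1 to 357.0 in R26-TIR1(F74G)), with a log2 fold change of -0.34 and a DESeq2 adjusted p of 0.137.

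Per kb, transcripts of both NAB corepressors lay between those of Egr1 and Egr3, whose products they bind. Nab1 (chromosome 1, 52496453 to 52539838, minus strand) had 7193, 7162, 4955 and 5112 normalized counts in R26-WT and 6157 to 7169 (median 6788) in R26-TIR1(F74G). The R26-WT libraries fell into a high and a low pair, and all R26-TIR1(F74G) libraries lay within their span, for a log2 fold change of 0.15 (SE 0.14; adjusted p = 1 in DESeq2). Nab2 (chromosome 10, 127496787 to 127504437, minus strand), itself an EGR target, had 3314, 3197, 2528 and 2912 normalized counts in R26-WT and 2442 to 3410 (median 2947) in R26-TIR1(F74G). The groups overlapped on both sides, and DESeq2 gave a log2 fold change of -0.04 (SE 0.13, adjusted p = 1) that changed sign without R26-WT replicate 1 (0.01) or R26-TIR1(F74G) replicate 7 (0.01). Of the exon bases of Nab2, 42.2% are shared with genes on the other strand (Stat6, Gm16229 and Nemp1). Read pairs there cannot be assigned without strand and were left out by the counting, so the level of Nab2 is a low estimate. The other 9 genes overlap no other gene.

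Cd69 and Cd5 gave the differences nearest to the threshold, both lower in R26-TIR1(F74G). Cd69 (chromosome 6, 129244288 to 129252399, minus strand), an early activation antigen that holds T cells in lymphoid tissue, had 14351, 18452, 12927 and 15815 normalized counts in R26-WT and 9008 to 15365 (median 11329) in R26-TIR1(F74G). In 5 of 6 R26-TIR1(F74G) libraries the count lay below all R26-WT libraries, and replicate 6, at 15365, was the exception. The ratio was 0.746 (95% interval 0.597 to 0.932) and the log2 fold change -0.42 (SE 0.16), with an unadjusted p of 0.00977 and an adjusted p of 0.279 in DESeq2, and 0.411 in edgeR. A two-sided exact permutation test over the 210 splits gave p = 0.0286. Without R26-TIR1(F74G) replicate 6 the log2 fold change was -0.53 and passed (DESeq2 adjusted p = 0.0195). That fit leaves out the library that departs most from the difference, and it called 263 genes in all.

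Cd5 (chromosome 19, 10694480 to 10716366, minus strand), a receptor that dampens TCR signal and whose level follows the strength of self recognition, had 35545, 34219, 36948 and 35925 normalized counts in R26-WT and 27232 to 33921 (median 31411) in R26-TIR1(F74G). It was the 1 gene of 10 whose groups did not overlap, against 2.37% of all genes tested. The difference was small, with a ratio of 0.874 (95% interval 0.774 to 0.986) and a log2 fold change of -0.20 (SE 0.09, unadjusted p 0.029 and adjusted p 0.565 in DESeq2, exact two-sided permutation p = 0.00952). Spread within R26-WT was also small, with a coefficient of variation of 3.16%. With the length trend removed the groups overlapped (32146 to 40912 in R26-WT, 24774 to 35310 in R26-TIR1(F74G)), while the log2 fold change was -0.24 (DESeq2 adjusted p = 0.529). With 1 surrogate variable in the fit Cd5 passed (log2 fold change -0.17, DESeq2 adjusted p = 0.0369), where 4.54% of all genes passed. In bulk samples fewer cells with a transcript and less transcript per cell cannot be told apart.

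Summed Treg and cell cycle markers also differed between the genotypes. The summed normalized counts of 6 Treg markers were 81318 to 89265 in R26-WT and 66398 to 77729 in R26-TIR1(F74G). Of these 6 genes 0 passed the test, against 1.74% of all genes tested. The log2 fold change was below 0 for 5 of them and above it for 1, Foxp3 (0.07). The summed counts of 12 proliferation genes were 1986 to 3667 in R26-WT and 5234 to 11029 in R26-TIR1(F74G), and 11 of 12 passed, all higher, against 1.40% of all genes tested (4 of 12 in edgeR). The sums of 5 T cell markers overlapped (177017 to 240965 and 173679 to 224271). So did those of 11 activated Treg genes (9480 to 10788 and 9760.5 to 17834), of which 0 passed. Those of 9 resting T cell genes overlapped as well (387357 to 408786 and 373907 to 427824). Of these 9, 1 passed, Tcf7, which was higher (0.425 on the log2 scale, adjusted p 0.0257 in DESeq2 and 0.121 in edgeR), against 1.40% of all genes tested. The part of the Treg and cell cycle marker shifts in the values of Cd69 and Cd5 was not tested.

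Among other genes that TCR signal induces, some did pass the test. Of 25 such genes, all tested, 4 fell in R26-TIR1(F74G) and 0 rose, against 0.336% of all genes tested that fell, and their median log2 fold change was -0.16. The 4 were Fos, Jun and Junb, which encode subunits of the AP-1 transcription factor, and Tnfrsf9, which encodes the costimulatory receptor 4-1BB. EdgeR called 1 of them, Jun, and limma voom 1, Junb, where they called 7 and 11 of all 16363 genes lower. All 6 AP-1 genes of the list had a lower mean in R26-TIR1(F74G), with a median log2 fold change of -0.69 (a subset set apart after its values were seen). Egr4, a further EGR gene, had the highest log2 fold change of the 25, at 1.03 (SE 0.57, adjusted p 0.865 in DESeq2 and 0.97 in edgeR). It was not called and had only 3 to 46 read pairs in a library.

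Jun had 21828, 14585, 15185 and 13367 normalized counts in R26-WT and 8222 to 11699 in R26-TIR1(F74G), with no overlap (-0.71 on the log2 scale, SE 0.16, adjusted p 0.00109 in DESeq2 and 0.0473 in edgeR). Junb had 68015, 40255, 63221 and 50328 in R26-WT and 28835 to 38778 in R26-TIR1(F74G), also without overlap (-0.70 on the log2 scale, SE 0.17, adjusted p 0.00279 in DESeq2 and 0.0673 in edgeR). Tnfrsf9 had 7410, 7670, 8610 and 7247 in R26-WT and 4861 to 6095 in R26-TIR1(F74G) (-0.49 on the log2 scale, SE 0.11, adjusted p 5.65e-04 in DESeq2 and 0.051 in edgeR). For these 3 genes of 25 every R26-TIR1(F74G) library lay below every R26-WT library, where 2.37% of all genes tested had no overlap in either direction. Fos had 7013, 3532, 3254 and 2704 in R26-WT and 1635 to 3175 in R26-TIR1(F74G), with R26-WT replicate 1 far above the rest (-0.88 on the log2 scale, SE 0.27, adjusted p 0.0493 in DESeq2 and 0.244 in edgeR). Without R26-WT replicate 1 the list had 2 calls, Jun and Tnfrsf9, with log2 fold changes of -0.50 for Fos (DESeq2 adjusted p = 0.463) and -0.59 for Junb (0.0519). Fos also lost its call without any one of R26-WT replicates 2 and 3 and R26-TIR1(F74G) replicates 6 to 10 (DESeq2 adjusted p from 0.0537 to 0.146), with log2 fold changes of -0.81 to -0.98. It likewise lost its call with the length trend removed (-0.87, DESeq2 adjusted p = 0.082) and with no count filter (-0.88, 0.0582).

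AP-1 transcripts also respond to tissue dissociation and stress. Of 12 stress genes 1 fell, against 0.336% of all genes tested, namely Ppp1r15a, a gene of the integrated stress response (-0.77 on the log2 scale, SE 0.19, adjusted p 0.00592 in DESeq2 and 0.0928 in edgeR), and 0 rose. The summed counts of these 12 genes overlapped between genotypes, at 81587 to 97695 in R26-WT and 64179 to 97597 in R26-TIR1(F74G). Their part in the AP-1 values was not tested.

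**Figure D3:**
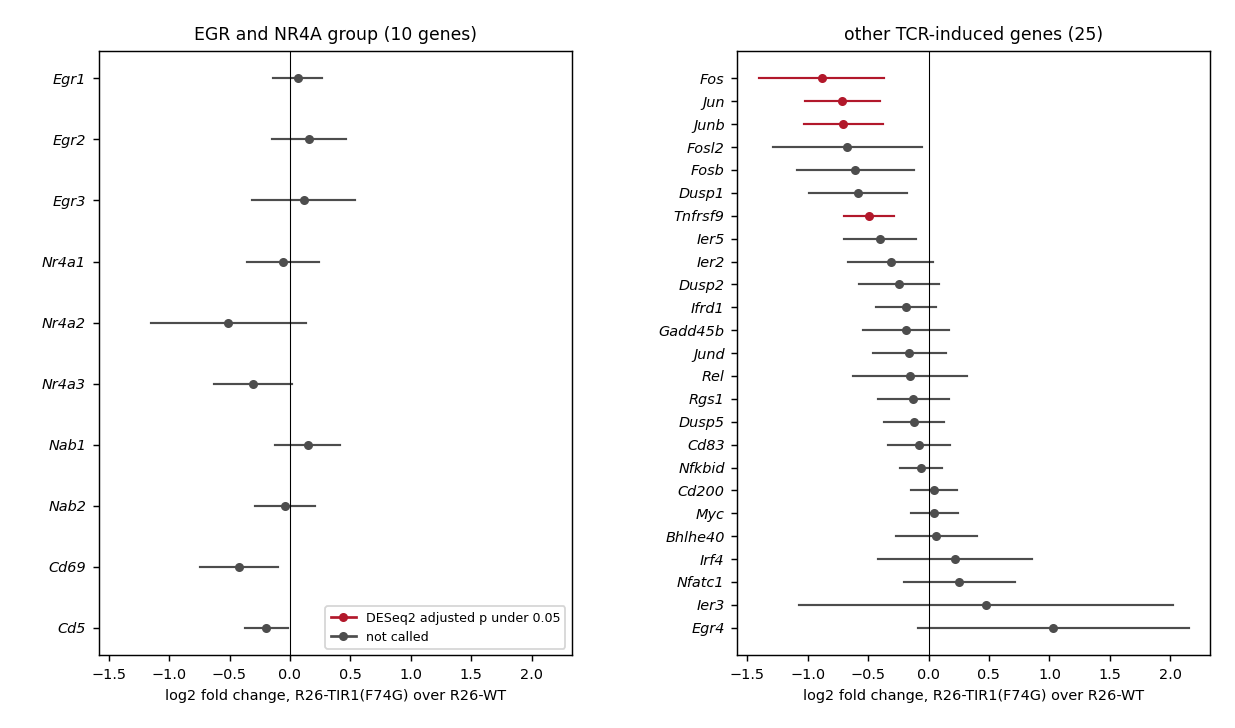
Log2 fold change of R26-TIR1(F74G) over R26-WT (x axis) with its 95% confidence interval (line) for the 10 EGR, NR4A, NAB, Cd69 and Cd5 genes (left) and for 25 other TCR-induced genes (right, ordered by fold change). Red marks a DESeq2 adjusted p under 0.05, which holds for 0 of 10 genes on the left and for Fos, Jun, Junb and Tnfrsf9 on the right.

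Genes upstream of EGR and NR4A transcription, from the TCR complex through MAP kinases and calcineurin to SRF and MEF2 factors, showed no call. Of 24 such genes 0 passed the DESeq2 test, against 1.74% of all genes tested, and edgeR and limma called 0. At an unadjusted p under 0.05 there were also 0, against 6.86% of all genes. Their log2 fold changes lay between -0.15 and 0.29 with a median of 0.01. Zap70, the kinase recruited to the activated TCR, had a DESeq2 log2 fold change of 0.20 (SE 0.11, adjusted p = 0.866), Elk1, an SRF partner phosphorylated by MAP kinases, of 0.29 (SE 0.22, adjusted p = 1), and Ppp3ca, the calcineurin catalytic subunit, of -0.15 (SE 0.12, adjusted p = 1). Ppp3ca passed with 1 surrogate variable in the fit (log2 fold change -0.20, DESeq2 adjusted p = 0.0486). It was the 1 call among the 24 genes there, where 4.54% of all genes passed.

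Among 20 genes that restrain TCR signal or mark T cells under lasting stimulation, several of them known targets of EGR2, EGR3 or NR4A factors, 2 rose in R26-TIR1(F74G), against 1.40% of all genes tested, and 0 fell, with a median log2 fold change of 0.08. EdgeR and limma called 0 of 20, and 8 of 20 had an unadjusted p under 0.05 in DESeq2 (6 higher, 2 lower), against 6.86% of all genes. Tigit, an inhibitory receptor, had 22.8 to 77.7 normalized counts in R26-WT and 71.4 to 337.4 in R26-TIR1(F74G) (1.73 on the log2 scale, SE 0.45, adjusted p 0.0102 in DESeq2 and 0.245 in edgeR). Tox2, an HMG box factor, had 57.5 to 177.1 and 149.9 to 640.3 (1.44 on the log2 scale, SE 0.40, adjusted p 0.0236 in DESeq2 and 0.289 in edgeR). Both were low and their groups overlapped, with 5 of 6 R26-TIR1(F74G) libraries above all R26-WT libraries. Lag3, another inhibitory receptor, had 84.6 to 121.0 in R26-WT and 127.4 to 204.4 in R26-TIR1(F74G), without overlap (0.59 on the log2 scale, SE 0.19, adjusted p 0.0876 in DESeq2 and 0.32 in edgeR). Without R26-WT replicate 3 or 4 the list had 0 calls (DESeq2 adjusted p of 0.0828 and 0.0984 for Tigit, and 0.175 in both fits for Tox2). Tigit also lost its call without R26-WT replicate 1 (0.0594), and Tox2 without R26-TIR1(F74G) replicate 8 (0.0571) or 9 (0.0858). In these fits without a library the log2 fold change was 1.52 to 1.69 for Tigit and 1.12 to 1.45 for Tox2. With 1 surrogate variable neither passed (0.0551 for Tigit, 0.0681 for Tox2, with log2 fold changes of 1.72 and 1.48), and the 2 calls were Lag3, higher (DESeq2 adjusted p = 0.0473), and Cdkn1b, which encodes a cell cycle inhibitor, lower. In that fit 4.54% of all genes passed.

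Within a genotype, some EGR and NR4A transcripts deviated together from library to library. With group means removed, deviations of Nr4a1 and Nr4a3 had a Pearson r of 0.895 over 10 libraries (permutation p = 4.50e-04, adjusted over 6 pairs 0.0027) and a Spearman rho of 0.806 (permutation p = 0.00711, adjusted 0.0427). Without the 2 libraries farthest from the median of Nr4a1 r was 0.807. As a description, Egr2 deviated with Nr4a3 (r 0.89) and Nr4a1 (r 0.82), and Nab1 with Nr4a3 (r 0.78), Egr2 (r 0.77) and Nr4a1 (r 0.69). The highest mean deviation of the 6 factors was in R26-WT replicate 2 and the lowest in R26-WT replicate 3.

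For several of these genes the deviations followed the length trend of the libraries. The correlation with that trend was 0.85 for Egr3, 0.81 for Nr4a1, 0.72 for Egr2, 0.69 for Nr4a3 and 0.68 for Nab1, and -0.68 for Cd5, whereas for Nr4a2, Egr1, Nab2 and Cd69 it was 0.29, 0.21, -0.05 and 0.05. With the trend removed, r between Nr4a1 and Nr4a3 was 0.472 (permutation p = 0.169, adjusted 0.338). The relation thus did not pass without the length trend, and whether that trend is technical was not tested.

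**Figure D4:**
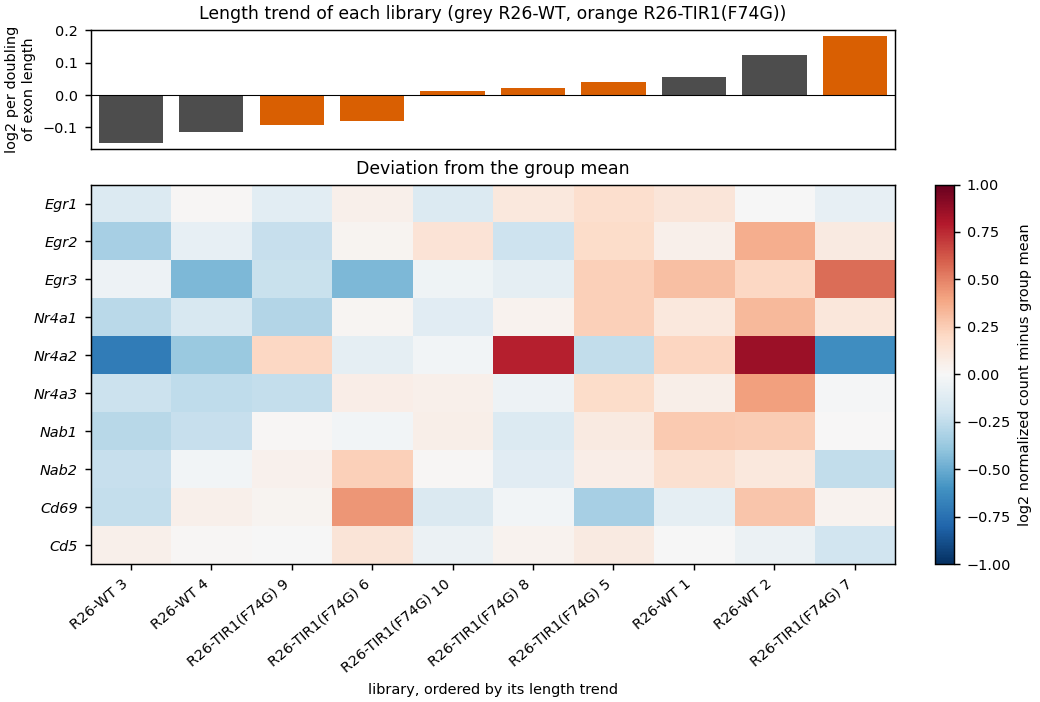
Top, length trend of each library (log2 units per doubling of exon length, grey for R26-WT, orange for R26-TIR1(F74G)). Below, log2 normalized count minus the group mean (colour scale) of the 10 genes in the same libraries, ordered by that trend, in which Egr2, Egr3, Nr4a1, Nr4a3 and Nab1 pass from blue (below the group mean) on the left towards red (above it) on the right, and Cd5, with a correlation of -0.68, the other way.

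The other pairs examined had no relation that passed. Egr1 and Nr4a1 had r 0.609 and rho 0.539 (permutation p = 0.0655 and 0.115, adjusted 0.197 and 0.23), and r 0.495 without 2 libraries. Without R26-WT replicate 2 this r was 0.779 (adjusted permutation p = 0.0477), and with the length trend removed it was 0.028. Egr2 with Egr3 gave r 0.457 and rho 0.588 (adjusted permutation p = 0.273 and 0.23), and Egr2 with Nab2 r 0.459 and rho 0.370 (0.273 and 0.44). For the surface readouts r was -0.001 between Egr1 and Cd69 (adjusted permutation p = 0.997) and -0.149 between Nr4a1 and Cd5 (0.827). With the length trend removed, r was 0.414 for Egr2 and Egr3, 0.652 for Egr2 and Nab2, 0.194 for Egr1 and Cd69 and -0.612 for Nr4a1 and Cd5 (adjusted permutation p = 0.351, 0.181, 0.724 and 0.181).

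Genes whose deviations were most like the mean of the 6 EGR and NR4A factors were sought among 9985 other genes with a mean normalized count of at least 100. The closest over the 10 libraries were Aacs (r 0.987), Cdc42ep4 (0.978), Zbtb18 (0.969), Spata2 (0.964) and Slc16a1 (0.962). None of the 5 passed the test between genotypes (DESeq2 adjusted p = 1 for each). These r values are the highest of 9985 and were not tested themselves. The ranking was not repeated with the length trend removed.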

How the data were processed

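The authors deposited raw counts of read pairs for each gene name, with no normalization. File headers name featureCounts 2.1.1 and GENCODE M30, applied to primary alignments in which both mates mapped with a quality of 30 or more. The submitters' processing notes name mm39 and Bowtie2, while the study's methods name STAR and another featureCounts version. No strand option was given. Per the labels, cDNA was amplified from little RNA, and no molecular identifiers are named. PCR copies are not independent molecules.

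Libraries of one group differed by more than sampling noise in every pair (chi-square of counts) and were kept as replicates. In R 4.3.3, DESeq2 1.42.0 (Wald test, genotype as the only term, as in the study's methods) was fitted to 16363 genes whose mean count reached 10, with Benjamini-Hochberg adjustment over them. The other 39446 gene rows were not tested. DESeq2 gave no adjusted p for 6 genes. To normalize, each count was divided by its library's DESeq2 size factor, and per kb values were also divided by the exon length in the file. Exact permutation tests used all 210 assignments of 10 libraries to the genotypes, the smallest possible p being 0.00476, and correlations 100000 permutations of log2(normalized count + 1) minus the group mean. Alternatives were edgeR 4.0.16 (quasi-likelihood), limma 3.58.1 (voom with quality weights), TMM factors, other count filters, removal of the length trend (the trend of log2 counts on log2 exon length in each library), 1 surrogate variable (sva 3.50.0) and leaving out each of the 10 libraries. The tests were checked on simulated data, in which the share of false calls lay above the nominal rate for DESeq2 and below it for edgeR and limma, so edgeR values are given beside DESeq2 calls.

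The 10 genes, the other gene lists and the tests were chosen with earlier results of these data known. Named genes of the TCR-induced, restraint and upstream lists are those called, or, to make up 3 for a list, those with the smallest p. Egr4, Tcf7, Ppp1r15a, Cdkn1b, the AP-1 subset, the promoter motifs and the repeats of the correlations were chosen after the values were seen.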

Additional observations from a re-analysis of the deposited data

Results flagged for a closer look

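In R26-TIR1(F74G) replicate 9, Tigit stood at 337.4 normalized counts, where the nearest of the other 5 libraries had 141.5, a gap of 0.737 of the range of the group. The same library had the highest Tox2 count, 640.3 against 323.1 in the nearest library, a gap of 0.647. Both gaps exceed Dixon's critical value of 0.625 for 6 samples. They were the only 2 among 42 groups of values examined, and chance alone marks about 1 in 20 groups (5%). No EGR, NR4A or NAB gene, nor Cd69 or Cd5, was marked in either genotype.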

How the results depend on the processing

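No paired analysis was possible because no replicate number occurs in both genotypes. DESeq2 called 284 genes (229 higher, 55 lower), edgeR 61, limma voom 80, and the fit with 1 surrogate variable 743 (468 higher, 275 lower), and leaving out single libraries gave 187 to 346. Lower calls numbered 104 with the length trend removed, and 26 (without R26-WT replicate 3) to 88 (without R26-WT replicate 2) when single libraries were left out. Of the 10 genes 1 was called with 1 surrogate variable (Cd5) and 0 to 1 when single libraries were left out. TCR-induced genes called numbered 1 in edgeR, 1 in limma, 7 with 1 surrogate variable and 2 to 5 without single libraries, and restraint genes 0 in edgeR, 0 in limma, 2 with 1 surrogate variable (neither Tigit nor Tox2) and 0 to 2 without single libraries. With 1 surrogate variable 1 upstream gene was called. The log2 fold change of Egr3 was -0.009 with 1 surrogate variable and -0.018 to 0.22 without single libraries, that of Nr4a1 was 0.017 in limma and -0.143 to 0.061 without single libraries, and that of Nab2 ran from -0.111 to 0.014. Egr1, Egr2, Nr4a2, Nr4a3, Nab1, Cd69 and Cd5 kept their direction under all 17 alternatives. The correlation of Nr4a1 and Nr4a3 was 0.472 with the length trend removed and 0.840 to 0.936 without single libraries, and that of Egr1 and Nr4a1 was 0.493 to 0.779 without single libraries. The causes were not tested. At 74 to 266 read pairs, Nr4a2 was measured least precisely, and its 95% interval allows changes of -1.15 to 0.13 on the log2 scale.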
